A study of Saccharomyces cerevisiae with 2 samples.

Results

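The genes described here are the 81 Saccharomyces cerevisiae genes that encode proteins of the large subunit of the cytoplasmic ribosome. They were chosen by name: RPL with a number and an optional A or B, together with RPP0, RPP1A, RPP1B, RPP2A and RPP2B, and without mitochondrial ribosomal proteins. They are 81 of the 6002 nuclear protein-coding genes in the annotation, and 80 of them were among the 4336 names listed in the data. Both libraries came from strain BTY140, a MATa strain with the markers his3Δ1, leu2Δ0, met15Δ0 and ura3Δ0. Its DBP2 gene carries the HTBH tag with kanMX6, so every position below was obtained with the tagged protein. The cells grew in YPD at 30 °C to an OD600 of about 1.0 and received UV light before harvest. RNA joined to Dbp2p, a DEAD-box RNA helicase, was recovered through the histidine-biotin tag and mapped by iCLIP, which reads the crosslinked nucleotide from the end of a cDNA. The 2 libraries form 1 group of 2 replicates, the labels do not say how the cultures were separated, and neither an untagged strain nor an input library entered the comparison. The spread between the replicates may therefore be technical, and with 1 group no comparison between conditions and no p-value was possible.

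The large ribosomal subunit holds the peptidyl transferase centre, which joins amino acids, and the tunnel through which the new protein leaves. Its proteins are made from some of the most abundant and most actively transcribed messenger RNAs of growing yeast. Most of these genes exist as 2 copies, named A and B, left from an ancient genome duplication. Many also carry an intron close to the start codon, which is uncommon among yeast genes. The intron is removed before the messenger RNA leaves the nucleus.

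The tables list nucleotide positions and, for each, the share of its gene's signal. These shares sum to 1 in every gene, so they describe where the signal of a gene lies and not how much there is. How widely a transcript was marked was measured by its number of listed positions. It moves with the amount of RNA, the length of the gene, the depth of the library and filters not given in the sources used here, so more RNA and more binding per RNA cannot be told apart. The read depth behind a position is unknown. Replicate 1 held 8666 positions in all and replicate 2 held 18088.

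The bases listed at neighbouring positions show the form of the data for the copies discussed below. The sequences are the listed bases of replicate 2, read 5′ to 3′ on the gene's strand (sacCer3). A capital letter marks the strongest position of the stretch, and n marks a nucleotide that the table did not list. The first stretch lies 163 to 158 nt before the end of the stop codon in RPL7A (chrVII:364493-364498, minus strand) and RPL7B (chrXVI:174539-174544, plus strand). The second lies 161 to 156 nt before it in RPL11A (chrXVI:731380-731385, minus strand) and RPL11B (chrVII:648539-648544, minus strand). The third lies 373 to 368 nt before it in RPL21A (chrII:606767-606772, plus strand) and RPL21B (chrXVI:407166-407171, plus strand). The fourth lies 115 to 98 nt before it in RPL4A (chrII:301139-301156, plus strand) and RPL4B (chrIV:472826-472843, plus strand).
RPL7A: Ttngtc
RPL7B: Ttggtc
RPL11A: Attttc
RPL11B: Antttc
RPL21A: Gnnaca
RPL21B: Gnnaca
RPL4A: Tnngntnnnnnncnnacg
RPL4B: Tnngatnnnnnncnnacn
In each of these printed stretches, chosen after the positions had been seen, the strongest nucleotide was the same one in both copies and the first of the stretch. Another stretch listed in both copies of RPL4, not printed here, did not follow this pattern. Its strongest nucleotide lay 719 nt before the end of the stop codon in RPL4A, with 13.3% of the signal. In RPL4B it lay 723 nt before that end, with 27.5%. RPL12, whose copies also shared nucleotides, did not follow the pattern either. In its stretch 175 to 165 nt before the end of the stop codon, not printed here, the strongest nucleotide differed between the copies. It lay 170 nt before that end in RPL12A, with 28.2% of the signal, and 175 nt before it in RPL12B, with 13.2%.

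Nearly all large subunit genes were listed. Replicate 1 listed 78 of the 81 genes with 369 positions, and replicate 2 listed 79 with 731 positions. The share listed was 96.9% ± 0.873 (SD, n = 2). Of all protein-coding genes, 45.0% were listed in replicate 1 and 63.2% in replicate 2. Listed in both replicates were 77 members, or 95.1%, compared with 37.4% of all protein-coding genes. The median member had 4 positions in replicate 1 and 7 in replicate 2, where the other 5865 protein-coding genes outside the ribosomal lists had medians of 0 and 1. Per kilobase of annotated span, the medians of the members were 5.73 and 10.5 positions, and those of the other genes 0 and 0.859. The 56 RPS genes of the small subunit were close to the large subunit, with medians of 4 and 8 positions and 54 and 52 genes listed. At least 10 positions were found for 7 members in replicate 1, where 0.900% of all protein-coding genes reached that number. In replicate 2 there were 35 such members, or 43.2%, where 5.45% of all protein-coding genes reached it.

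**Figure D1:**
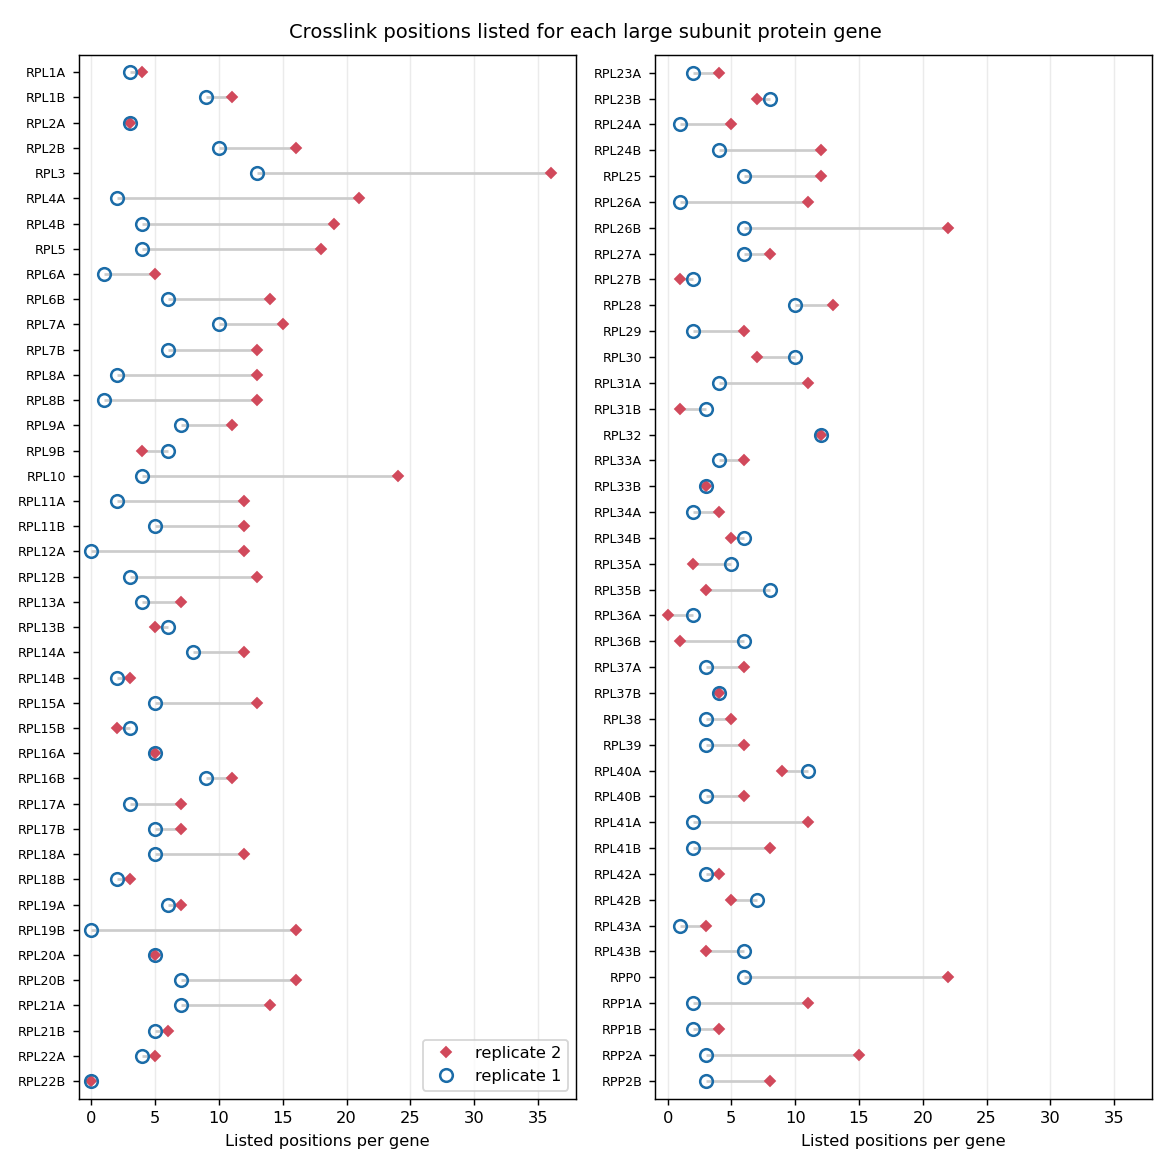
Number of listed crosslink positions (x axis) for each of the 81 large subunit protein genes (y axis), with open blue circles for replicate 1 and red diamonds for replicate 2. RPL3 reached 13 and 36 positions, RPL22B had none in either replicate, and 59 of the 81 genes had more positions in replicate 2.

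The members kept only a loose order between the replicates. Spearman's rho of the number of positions across the 81 genes was 0.29, and Pearson's r of log2(positions + 0.5) was 0.30, as a description across genes that share a library. Among the 56 small subunit genes rho was 0.22. Among the other protein-coding genes it was 0.44, but only 43.8% and 62.4% of these were listed, so unlisted genes entered that value. Replicate 2 had more positions for 59 members, the same number for 7 and fewer for 15.

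Of the proteins next to the peptidyl transferase centre, RPL3 stood first in both replicates by number of positions. Per kilobase of span, RPL3 had 11.2 positions in replicate 1 and 30.9 in replicate 2. The shorter RPL10 had 6.01 and 36.0, above RPL3 in replicate 2. RPL3 (YOR063W, chromosome XV, 444686 to 445849), whose protein reaches towards the catalytic centre, had 13 positions in replicate 1 and 36 in replicate 2. Its strongest position was nucleotide 209 of the span in replicate 1, with 30.8% of the signal, and nucleotide 921 in replicate 2, with 18.1%. RPL10 (YLR075W, chromosome XII, 282927 to 283592), whose protein is added late in assembly and contacts tRNA, had 4 positions in replicate 1, of which 3 lay past the stop codon, and 24 in replicate 2, all inside the span. RPL2B (YIL018W, chromosome IX, 316768 to 317932) had 10 and 16 positions, while its copy RPL2A (YFR031C-A, chromosome VI, 220507 to 221418) had 3 and 3. By the difference between copies summed over the replicates, 20 positions, this was the most unequal of the pairs.

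The stalk, formed by RPP0, the acidic P1 and P2 proteins and RPL12 at its base, recruits the GTPases of translation. Its 7 genes had a median of 3 positions in replicate 1 and 12 in replicate 2. RPP0 (YLR340W, chromosome XII, 805887 to 806825) had 6 positions of equal share in replicate 1, each 16.7% of the signal, and 22 in replicate 2. There, nucleotide 162 held 29.9% and nucleotide 39 held 29.2%. RPP1A had 2 and 11 positions, RPP1B 2 and 4, RPP2A 3 and 15, and RPP2B 3 and 8. In RPP2B (YDR382W, chromosome IV, 1239492 to 1239824) the strongest position of replicate 2 was the A of the start codon, with 55.7% of the signal. In RPP2A (YOL039W, chromosome XV, 254297 to 254617) it was the second base of the stop codon, nucleotide 320, with 34.2%. RPL12A had no position in replicate 1 and 12 in replicate 2, and RPL12B had 3 and 13.

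RPL5 and both copies of RPL11 encode the proteins that bind 5S rRNA before it joins the subunit. RPL5 (YPL131W, chromosome XVI, 303121 to 304014) had 4 and 18 positions, RPL11A 2 and 12, and RPL11B 5 and 12. In replicate 1 the strongest RPL5 position lay 39 nt past the stop codon, with 57.1% of the signal, and in replicate 2 it was nucleotide 311, with 27.7%.

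The 16 genes for proteins that line the exit tunnel or its mouth had medians of 4 and 7 positions. RPL4A and RPL4B, whose protein extends into the tunnel wall, had 2 and 4 positions in replicate 1 and 21 and 19 in replicate 2. RPL26B (YGR034W, chromosome VII, 555812 to 556672) had 6 and 22, and RPL26A had 1 and 11. RPL19B (YBL027W, chromosome II, 168423 to 169376) had none in replicate 1 and 16 in replicate 2, whereas its copy RPL19A had 6 and 7. RPL22A had 4 and 5 positions and RPL22B, absent from both replicates, was the member never listed.

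The subunit bridge proteins RPL24 and RPL41 and the ubiquitin fusions RPL40A and RPL40B complete the role lists. RPL41A and RPL41B encode the smallest ribosomal protein in a span of 78 nt. RPL41A had 2 and 11 positions, of which 1 and 3 lay inside the span. In replicate 2 its strongest position was 22 nt upstream of the start codon, with 42.6% of the signal. RPL41B had 2 and 8 positions, and 50.8% of its signal in replicate 2 was 93 nt past the stop codon. RPL24A had 1 and 5 positions and RPL24B 4 and 12. RPL40A, which encodes ubiquitin joined to a ribosomal protein, had 11 and 9 positions and RPL40B 3 and 6.

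The remaining 45 members had medians of 5 and 6 positions, and all were listed in replicate 1. RPL36A, the member absent from replicate 2 alone, had 2 positions in replicate 1, and RPL36B had 6 and 1. The other members of the 10 best ranked over both replicates were RPL7A with 10 and 15 positions, RPL20B with 7 and 16, RPL21A with 7 and 14, RPL28 with 10 and 13, RPL6B with 6 and 14, and RPL7B with 6 and 13. RPL6A, the other copy of RPL6B, had 1 and 5. RPL14A had 8 and 12 positions and RPL14B 2 and 3. RPL30, whose protein represses splicing of its own precursor, had 10 and 7 positions. In replicate 1, nucleotide 518 of RPL30 held 55.2% of the signal, and in replicate 2 nucleotide 25 held 63.6%.

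Genes that regulate or serve the production of these proteins were listed at shares near those of all genes. Of 21 genes for transcription factors of ribosomal protein genes, dedicated chaperones and late assembly factors, 11 were listed in replicate 1 and 15 in replicate 2, with a median of 1 position in each. The share of all protein-coding genes listed was 45.0% and 63.2%. HMO1, a transcription factor at ribosomal protein promoters, had 4 and 4 positions, and RAP1, which binds these promoters, had 0 and 6. SQT1, the chaperone of Rpl10, had 2 and 4, and RRB1, the chaperone of Rpl3, had none in either replicate. NMD3, the export adaptor of the large subunit, had 2 and 8. The placeholder RLP24 and MRT4, a relative of Rpp0, had none.

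Most positions of the members lay inside the annotated span, which runs from start to stop codon with any intron included. The share inside was 80.5% in replicate 1 and 81.7% in replicate 2, a mean of 81.1% ± 0.835 (SD, n = 2). The share past the stop codon was 13.8% ± 1.93 (SD, n = 2), and the share upstream of the start codon 5.11% ± 1.09 (SD, n = 2). Neither flank differed from the other protein-coding genes the same way in both replicates. Upstream positions made up 4.34% and 5.88% for the members and 8.13% and 5.49% for the other genes. Positions past the stop codon made up 15.2% and 12.4% for the members and 16.8% and 9.94% for the other genes.

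Within the upstream flank the members' positions sat close to the start codon. Of their upstream positions, 11 of 16 in replicate 1 and 39 of 43 in replicate 2 lay within 30 nt of it, or 68.8% and 90.7%. They came from only 10 members in replicate 1 and 16 in replicate 2, where RPL31A and RPP2A held 6 each. Neighbouring nucleotides of 1 gene were counted separately here. For the other protein-coding genes the shares were 26.4% and 32.0%, and for the small subunit genes the counts were 11 of 22 and 16 of 29. RPL32 held 6 of the 16 upstream positions of replicate 1, 4 of them 11 to 21 nt before the start codon and the others 271 and 320 nt before it. RPL16A had 54.1% of its replicate 2 signal 3 nt before the start codon. Past the stop codon, 83.9% and 79.1% of the members' positions lay within 100 nt, compared with 64.1% and 68.1% for the other genes. The positions past the stop codon came from 37 members in replicate 1 and 32 in replicate 2. The lengths of the untranslated regions were not used here, and their part in these shares was not tested.

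**Figure D2:**
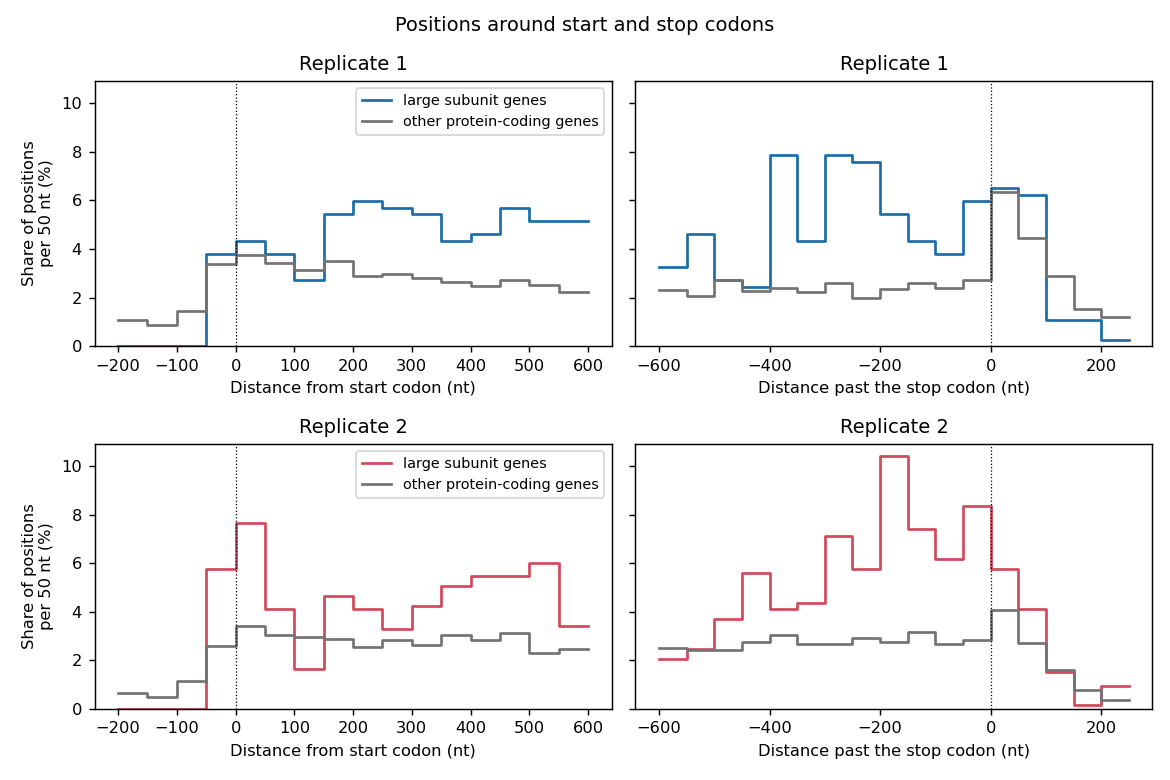
Share of all positions (y axis, percent per 50 nt) by distance from the start codon (left) and from the stop codon (right) for large subunit genes (coloured) and other protein-coding genes (grey), with replicate 1 above and replicate 2 below. The members' shares fall to 0 from 51 to 200 nt upstream of the start codon in both replicates, and members are shorter, with a median span of 795 nt against 1230 nt, so each 50 nt inside holds more of their positions.

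The 5′ part of the span separated the replicates and the gene classes. Of the members, 53 are generally known to carry an intron in the coding sequence, nearly always near the start codon. The annotation used here gives no intron borders. The spans of all 28 other members were a multiple of 3 nt long, as uninterrupted reading frames must be, and 22 of the 53 were. In the 53 genes the first 400 nt, 46.3% of their summed length, held 82 of 221 inside positions in replicate 1, or 37.1%, and 57 of 301 in replicate 2, or 18.9%. In the 28 other genes the first 400 nt, 62.1% of the summed length, held 75.0% and 66.6%. Thus the 5′ part of the intron-containing genes had less than its share by length in both replicates, and less in replicate 2 than in replicate 1. Counted as separate runs, in which positions within 5 nt of each other are 1 run, the first 400 nt of the 53 genes held 75 of 202 runs in replicate 1 and 26 of 140 in replicate 2. These runs came from 40 and 22 genes.

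**Figure D3:**
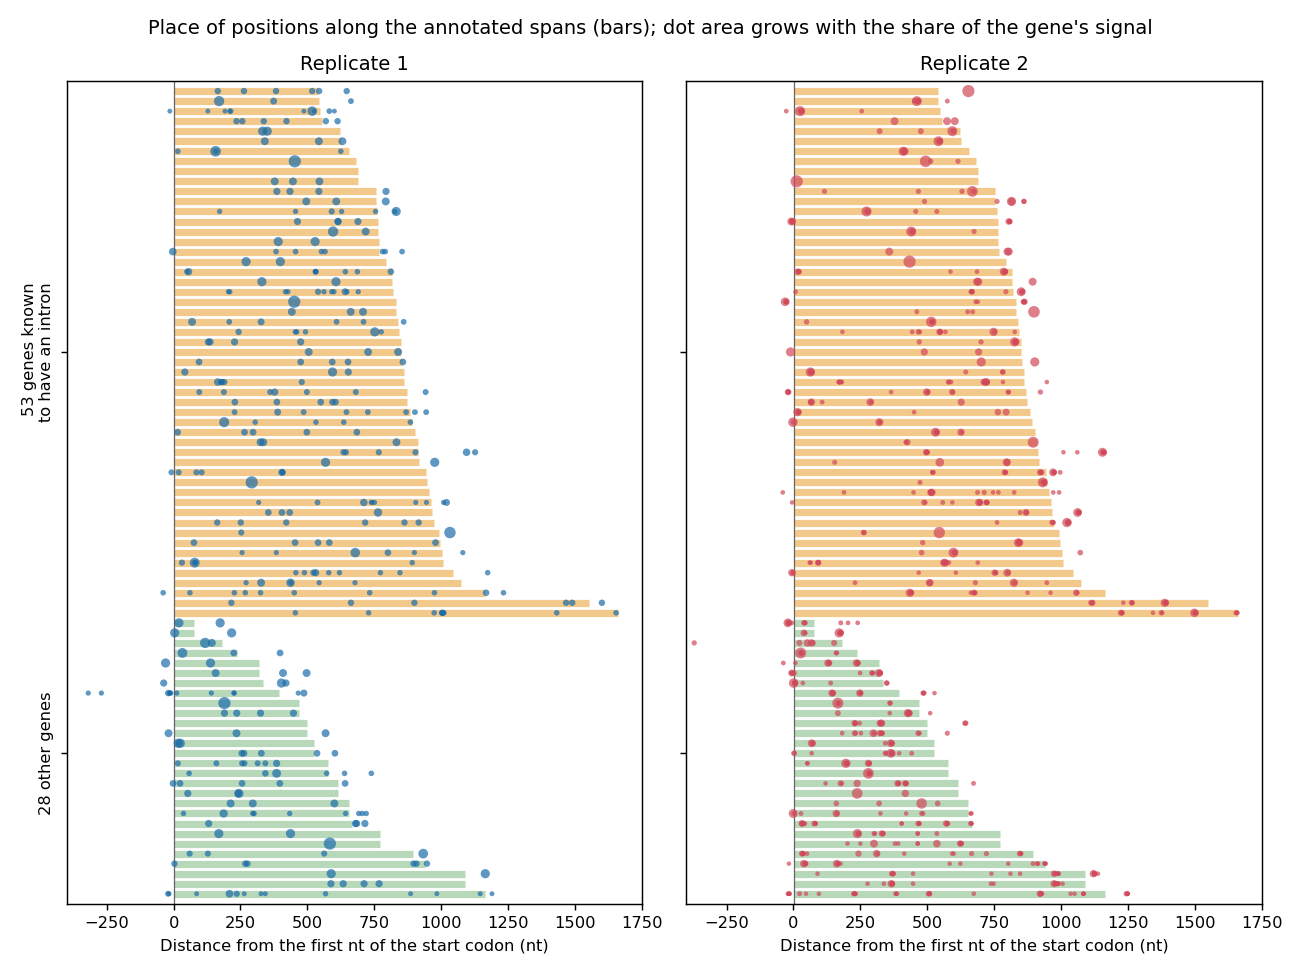
Positions of the 81 members along their annotated spans in replicate 1 (left) and replicate 2 (right); the x axis is the distance from the start codon in nt, each bar is the span of 1 gene, and dot area grows with the share of the gene's signal. Orange bars are the 53 genes known to have an intron and green bars the 28 others, and the first 400 nt of the orange bars hold 82 positions in replicate 1 and 57 in replicate 2.

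The number of positions followed the same division. The 53 genes known to have an intron had 256 positions in replicate 1 and 378 in replicate 2, a ratio of 1.48. The 28 others had 113 and 353, a ratio of 3.12. Counted as runs the order turned for the first class, with 236 runs in replicate 1 and 175 in replicate 2, and the second class had 105 and 153. Per kilobase of summed span they had 5.59 and 8.26 positions for the first class and 7.06 and 22.1 for the second, and the span of the first class includes the introns. The stalk genes other than RPP1B, the 5S rRNA-binding genes and the bridge genes all belong to the 28, so the role lists with the steepest rise in replicate 2, such as the stalk with 19 and 85 positions, cannot be told apart from this division.

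RPL26B had a stretch of its 5′ part listed in both replicates. In replicate 1, 5 of its 6 positions lay between nucleotides 165 and 190 of the span, with 85.7% of the signal, and in replicate 2, 8 of 22 lay there, with 9.32%. The listed bases of this stretch (chrVII:555976-556001, plus strand, sacCer3) are given with the strongest positions in capitals and n for nucleotides not listed.
RPL26B, replicate 1: Tnnnnnnnnnnnnaanannnnnnnna
RPL26B, replicate 2: nnnncCAanAnnaannannnnnnnnn
The nucleotides 178 and 181 of RPL26B, both A, were listed in both replicates. The gene's strongest position of replicate 2 lay elsewhere, at nucleotide 719, with 36.4%.

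RPL7A and RPL7B each hold a small nucleolar RNA inside an intron. SNR39 takes up nucleotides 746 to 834 of RPL7A and SNR59 takes up nucleotides 676 to 753 of RPL7B. No position of either host was listed inside these RNAs, whose own names had 29 and 1 positions (SNR39) and 22 and 3 (SNR59). The tables list each coordinate under 1 name, so positions there may have been given to the small nucleolar RNA. In replicate 1, 5 positions of RPL7A lay between nucleotides 1003 and 1010.

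Few nucleotides were listed in both replicates. They numbered 6 in 4 genes, or 1.63% of the 369 member positions of replicate 1 and 0.821% of the 731 of replicate 2. For the other protein-coding genes the shares were 3.94% and 1.47%, and for the small subunit genes 0.881% and 0.422%. Besides the RPL26B nucleotides, those of the members were 22 and 18 nt upstream of the RPL3 start codon, nucleotide 498 of RPL21A and nucleotide 1654 of RPL7A. The RPL21A nucleotide, a G, held 12.5% of the gene's signal in replicate 1 and 27.4% in replicate 2, where it was the strongest. The RPL3 nucleotide 22 nt upstream held 11.5% and 1.51%, and the RPL7A nucleotide, 8 nt before the end of the stop codon, 9.09% and 4.55%. When 5 nt between positions were allowed, 28 member positions of replicate 1 had a counterpart in replicate 2.

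The replicates differed in how positions were grouped along a transcript. In replicate 2, 403 of 652 neighbouring positions within a member, or 61.8%, were at most 5 nt apart, and in replicate 1, 28 of 291, or 9.62%. The other protein-coding genes had 49.4% in replicate 2 and 19.2% in replicate 1, and the small subunit genes 62.3% and 14.5%. With each run of such positions counted once, the members had 341 runs in replicate 1 and 328 in replicate 2. The other genes had 5085 and 9519, and the small subunit genes 202 and 211. Similar totals in both replicates were thus not particular to the members. Those of the members joined opposite changes, since the 53 genes known to have an intron had 236 and 175 runs and the 28 others 105 and 153. Replicate 2 had 106 runs of at least 3 positions in members, and in 91 of them, or 85.8%, the first position at the 5′ side carried the largest share. The other genes had 86.1% of 1536 runs in this form, so in replicate 2 the form was shared by members and other genes. In replicate 1 it was found in 5 of 6 such runs of members and in 62.4% of 101 of the other genes.

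**Figure D4:**
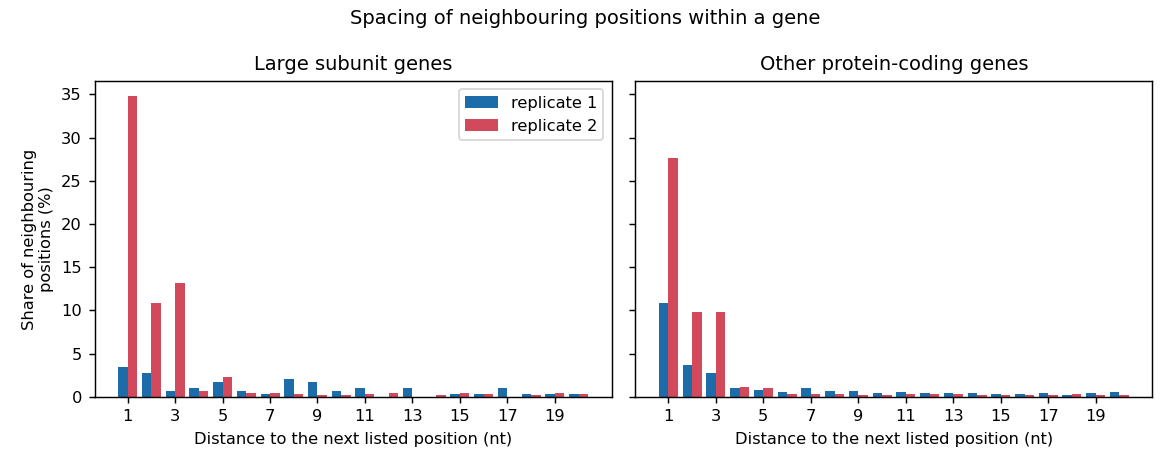
Distance from each listed position to the next in the same gene (x axis, nt) as a share of all neighbouring positions (y axis, percent) for large subunit genes (left) and other protein-coding genes (right), blue for replicate 1 and red for replicate 2. In replicate 2 a distance of 1 nt made up 34.8% of neighbours in members and 27.7% in other genes, and in replicate 1 3.44% and 10.9%.

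Adenine was the base listed most often. It made up 52.6% of member positions in replicate 1 and 42.3% in replicate 2, a mean of 47.4% ± 7.29 (SD, n = 2), and thymine, uracil in the RNA, 30.6% and 28.7%. The other protein-coding genes had 48.6% and 39.3% adenine, lower than the members in each replicate, and this difference was not tested. The small subunit genes had 54.6% and 41.6%, above the members in replicate 1 and below them in replicate 2. Base composition of the transcripts was not used here. With the strongest position of each run alone, adenine made up 53.7% in replicate 1 and 51.8% in replicate 2.

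The 81 members form 35 pairs of copies and 11 single genes. The same copy had more positions in both replicates in 24 pairs, the copies changed order between the replicates in 4, and 7 pairs had equal numbers in at least 1 replicate. By the absolute difference between copies summed over the replicates, the pairs after RPL2 were RPL26, RPL14, RPL19 and RPL6, with the counts given above. RPL19 is among them although its copies changed order, with more positions in RPL19A in replicate 1 and in RPL19B in replicate 2. How reads that match both copies were assigned was not given in the sources used here, so the division of positions between similar copies is uncertain.

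Copies of the same gene shared nucleotides in replicate 2. Reads that match both copies may have been placed in either or in both, so these shared nucleotides may depend on that unknown assignment. At the same distance from the stop codon, 69 positions in 20 pairs were listed for both copies, so that 24.2% of the 570 positions of paired genes in replicate 2 had a counterpart. The listed base was the same in 68 of the 69. With the strongest position of each run alone, 30 were shared in replicate 2 and 9 in replicate 1. In replicate 1 there were 9 in 8 pairs, 6.08% of 296 positions, with the same base in all 9. None of these positions lay past the stop codon, and all lay inside both spans except those of RPP2, which fell upstream of the RPP2A start codon. In the 25 pairs whose copies differ in span, alignment at the stop codon gave 32 shared positions in replicate 2 and alignment at the start codon gave 4. Between copy A of 1 replicate and copy B of the other, 4 positions coincided over all pairs.

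RPL7A and RPL7B had the most shared nucleotides, with 11 of 15 and 11 of 13 positions in replicate 2 and none in replicate 1. These nucleotides carried 86.4% of the RPL7A signal and 97.7% of the RPL7B signal. The strongest position of both copies was the same one, 163 nt before the end of the stop codon, with 41.8% and 36.8%. The copies of RPL4 shared 9 nucleotides in replicate 2, those of RPL11 shared 7, those of RPL21 6 and those of RPL12 5. In replicate 1 the RPL4, RPL11 and RPL21 pairs shared none, and RPL12A had no position there to share. In RPL21B all 6 positions of replicate 2 were also listed in RPL21A.

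Shared nucleotides did not always carry like shares of the signal. The RPL11 nucleotide 161 nt before the end of the stop codon held 31.1% in RPL11A and 45.2% in RPL11B, but the nucleotide 457 nt before it held 31.1% in RPL11A and 1.61% in RPL11B. In RPL4A the strongest position of replicate 2 lay 32 nt past the stop codon, with 27.6%, where RPL4B had no position. In RPL16, RPL6, RPL37, RPL33, RPL31, RPL27, RPL43 and RPP1, no nucleotide was shared between the copies in either replicate. The copies of RPL36 shared none in replicate 1, and RPL36A in replicate 2 and RPL22B in both had no position to share.

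**Figure D5:**
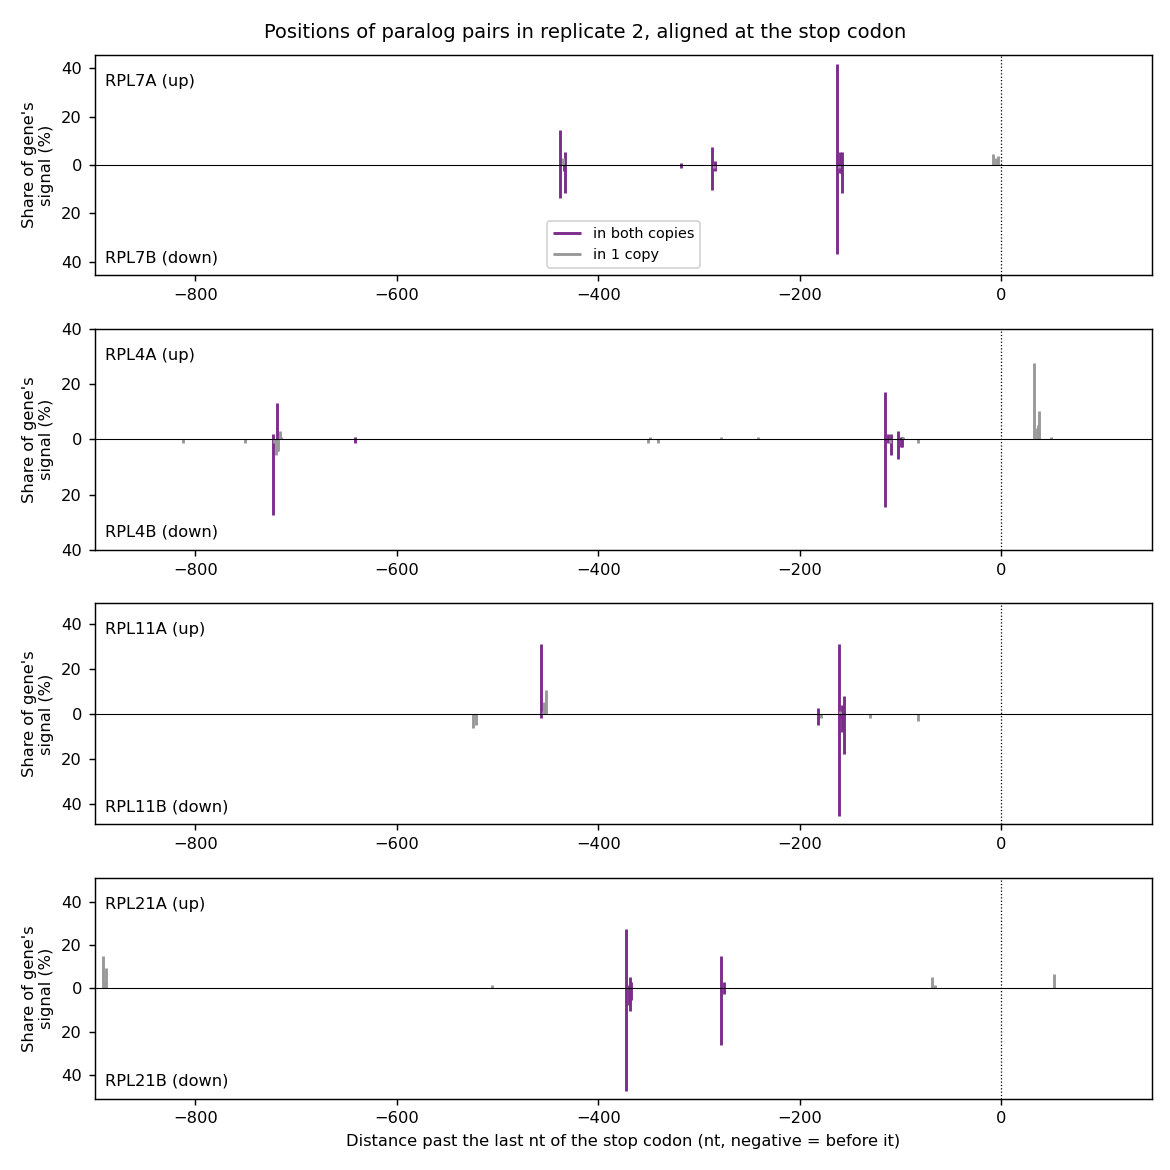
Replicate 2 positions of RPL7, RPL4, RPL11 and RPL21 copies aligned at the stop codon; the x axis is the distance past the last nt of the stop codon in nt, and bars give the share of the gene's signal in percent, upwards for copy A and downwards for copy B. Purple bars are nucleotides listed in both copies, 11, 9, 7 and 6 in the 4 pairs, and grey bars those in 1 copy.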

How the data were processed

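The authors deposited 1 table per iCLIP replicate. Each row gives a genome position with its strand and base, the gene, and a value that the file headers call normalized counts. As deposited, the value is the fraction of a gene's signal found there: the fractions sum to 1 within 1e-06 in all 6660 combinations of gene and replicate. The submitters' processing notes give the names CASAVA and TopHat and the build sacCer3, with neither versions nor roles. Nothing in the sources used here gives the handling of duplicates and multiply mapping reads, the flanks or the filters, and no read count was inferred.

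Members were matched by systematic name to RefSeq assembly R64, which has the coordinates of sacCer3. All 4 bases listed in members' start codons were those of ATG, all 6 in stop codons were allowed, and all 1100 positions lay on the named strand. Of these, 1 lay inside another annotated gene, an upstream position of RPL29.

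Positions were counted with Python 3.11.15, numpy 2.4.6, pandas 2.3.3 and matplotlib 3.10.9, each replicate on its own, and the counting was tested on simulated data. Nucleotide 1 of a span is the A of the start codon. No test was run, since the 2 libraries form 1 group. Named genes follow a rule: the 10 members with the best worse rank, members absent from a replicate, the RPP genes, the 5 pairs with most shared nucleotides and the 5 most unequal, members listed at the same nucleotide in both replicates, RPL7A, RPL7B and RPL30. Others named, such as RPL5, RPL10, RPL16A, RPL32 and RPL41A, were chosen after their values were seen. The members and lists were chosen with earlier results of these data known, and the intron list, the windows of 30, 100 and 400 nt, the runs and the printed stretches after the positions had been seen.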

Additional observations from a re-analysis of the deposited data

How the results depend on the processing

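Under the alternatives, these shares moved by more than 1 SD of the replicates. With at least 2 positions required, 92.0% of members counted as listed, and with positions inside the span alone 95.1%. Per kilobase of span the median was 8.13 positions, which is in another unit than the 5.5 positions per gene and cannot be set against its SD. The share inside the span was 80.2% when weighted by the fractions and 78.6% without nucleotides shared by copies. Some counts, which have no SD, moved by over 1.5 times. Nucleotides in both replicates numbered 28 within 5 nt, against 6 as reported. Positions shared by copies numbered 48 over both replicates when aligned at the start codon and 39 with the strongest position of each run, an alternative chosen after seeing the data, against 78 as reported. With each replicate alone, listing was 96.3% to 97.5%, the median 4 to 7 positions, the shares upstream, inside and downstream 4.34% to 5.88%, 80.5% to 81.7% and 12.4% to 15.2%, adenine 42.3% to 52.6% and positions shared by copies 9 (without replicate 2) to 69 (without replicate 1). No paired analysis was possible because the 2 replicates form 1 group. The depth behind a position is unknown, so an unlisted gene is not shown to be unbound.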
